A study of Rattus norvegicus with 16 samples.

Results

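Enzymes that remove superoxide and peroxides were followed in the lungs of spontaneously hypertensive (SH) and Sprague Dawley (SD) rats after exposure to sulfur dioxide (SO2), an irritant gas, or to air. The set was given by name and held 9 genes: the superoxide dismutases Sod1, Sod2 and Sod3, catalase (Cat), the glutathione peroxidases Gpx1, Gpx2 and Gpx3, and the peroxiredoxins Prdx1 and Prdx6. Of these, 8 had a probe set of their own, 1 each, among 10411 such genes on the array, and all 8 passed the filter, which left out the dimmest 30% of probe sets. The only probe set that carried the name Prdx1 was also assigned to the related gene Prdx1l1, so it was named for neither gene, and counts of members below are out of 8.

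Total RNA of lung was measured on 16 arrays in 4 groups of 4 biological replicates: SH rats in SO2, SH rats in air, SD rats in SO2 and SD rats in air. The SH rat is an inbred strain with inherited high blood pressure, and the SD rat is an outbred stock. By its title, the study put the SH rat forward to model injury of the airways by SO2; the comparisons ask what SO2 changed in either strain and how the strains differed. The labels name neither gas dose nor exposure length, and ages of the rats were not known here. In bulk tissue, fewer cells of a type and less RNA per cell cannot be told apart.

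Superoxide, which forms when oxygen takes up a single electron, is converted by the superoxide dismutases to hydrogen peroxide and oxygen. Sod1 works in the cytosol, Sod2 in mitochondria, and Sod3 is secreted and held in the matrix around vessels and airways, where the lung is rich in it. Catalase splits hydrogen peroxide inside peroxisomes. Glutathione peroxidases reduce peroxides with glutathione, most of them at a selenocysteine, and peroxiredoxins do so with a reactive cysteine.

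Arrays were alike in overall level, with medians of the signal (linear intensity per probe set) between 250.2 and 281.4. The tissue label was matched by high signals of lung epithelial genes. Sftpb, a surfactant protein made by alveolar type II cells, lay between 15042 and 26122, and Scgb1a1, the main secretory protein of club cells, between 22863 and 36625. Arrays of a group are numbered here as replicates in the order of their titles. SD air replicate 2, whose title opens with 46, stood apart in Terf2ip, a gene that otherwise separates the strains in these data. Terf2ip measured 693.8 there, against 1982 to 3167 on the other 7 SD arrays and 276.2 to 733.2 on the SH arrays. Some of the results that involve SD rats in air are also given without this array. The ratio of 3′ to 5′ actin signal, which rises as RNA is degraded, ranged from 1.29 to 3.12 in SH SO2, 1.49 to 2.36 in SH air, 1.47 to 2.94 in SD SO2 and 1.40 to 1.76 in SD air arrays.

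No member passed the test for SO2 against air in either strain. By limma, 0 of 8 members were called in SH rats and 0 of 8 in SD rats at an adjusted p under 0.05, and at an unadjusted p under 0.05 the counts were also 0 and 0. Over all 11106 probe sets tested, the called share was 0% in both strains, and an unadjusted p under 0.05 was reached by 4.78% in SH and 8.29% in SD rats. The median difference of the members (SO2 minus air, log2 scale) was -0.039 in SH rats, where that of all probe sets was 0.017. In SD rats it was -0.093, against 0.017 for all probe sets. Values above 0 were seen in 3 of 8 members in SH and 2 of 8 in SD rats, where 53.5% and 53.3% of all probe sets lay above 0. Signals of SO2 and air arrays overlapped for all 8 members in both strains, while 4.15% of all probe sets in SH and 3.54% in SD rats did not overlap.

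**Figure D1:**
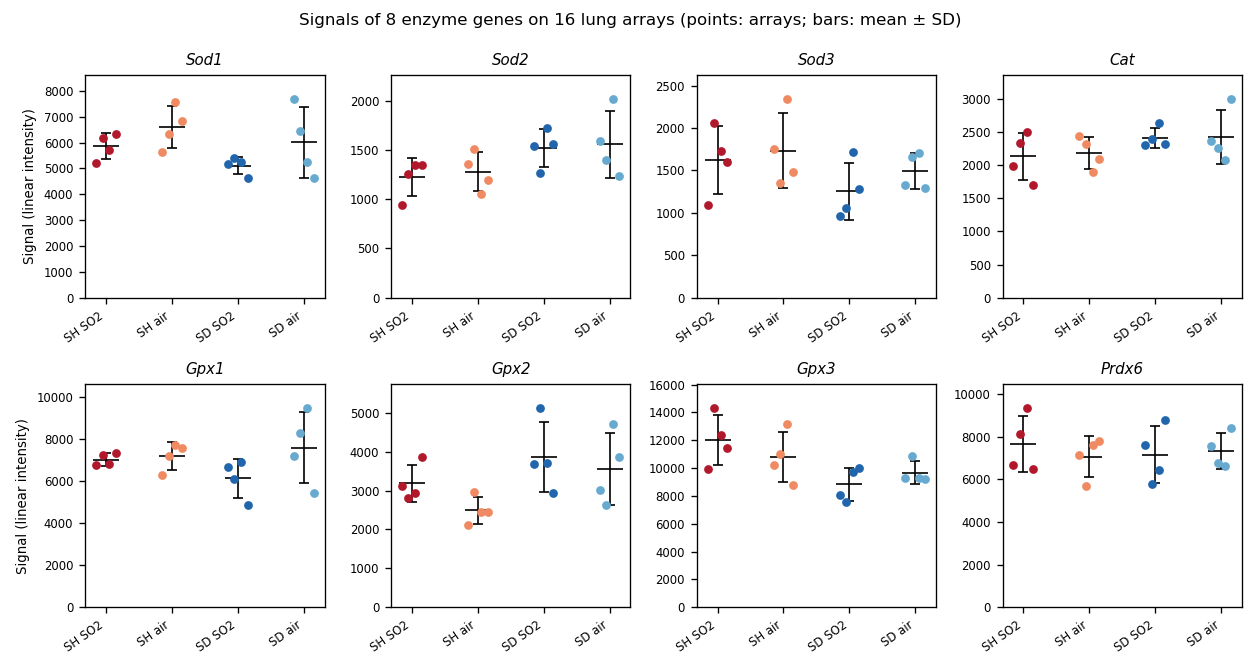
Signal (linear intensity, axis from 0) of the 8 enzyme genes with a probe set of their own, by group; points are arrays and bars the mean ± SD of 4 arrays. The SO2 and air groups of a strain overlap in each panel, and Gpx3 in SH SO2 arrays (9955 to 14294) lies mostly above SD SO2 arrays (7551.5 to 9977).

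Sod1, the cytosolic copper and zinc enzyme, measured 5220.1, 6192.5, 5705 and 6327 in SH SO2 arrays, against 5651, 6352, 7580.1 and 6839 in SH air arrays. SD SO2 arrays gave 5189.8, 5391.5, 5232 and 4616, against 7701.5, 6459.9, 5248 and 4619 in SD air arrays. All 8 SO2 arrays were below the median of the air arrays of their own strain, with overlap in both. The difference was -0.17 (SE 0.133) in SH rats and -0.21 (SE 0.133) in SD rats, with adjusted p = 0.95 and 0.706. Averaged over strains it was -0.19, with a 95% interval of -0.38 to 0.0086 and an adjusted p of 0.602. This interval holds both no difference and a loss to 0.766 times the level in air.

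Gpx1, the cytosolic and mitochondrial glutathione peroxidase, was the other member of which all 8 SO2 arrays lay below their strain's air median. Such a pattern was seen in 2 of 8 members and in 2.17% of all probe sets, and the opposite one, all 8 above, in 0 of 8 members and 2.75% of all probe sets. Its signals were 6754, 7231, 6795 and 7316 in SH SO2 arrays, against 6277, 7174, 7740.4 and 7573 in SH air arrays. In SD rats they were 6678.5, 6099.6, 6927 and 4857 in SO2, against 7177, 8265, 9462.5 and 5455 in air. The SH groups were close together, and the spread among SD air arrays was wide. The differences were -0.030 (SE 0.14, adjusted p = 0.987) in SH rats and -0.29 (SE 0.14, adjusted p = 0.603) in SD rats, or -0.24 in SD rats without SD air replicate 2. The averaged difference was -0.16, with a 95% interval of -0.37 to 0.048. Red cells are rich in Sod1 and Gpx1, and the 5 of 13 erythroid markers on the array summed to 7167 to 10223 in SH SO2 and 9223 to 12553 in SH air arrays. In SD rats they summed to 10314 to 11681 in SO2 and 11242 to 17493 in air. Hbb made up most of these sums, at 7634 in SH SO2, 10247 in SH air, 10146 in SD SO2 and 12875 in SD air arrays. Of 4 erythroid markers tested, 1 was above 0 (SO2 minus air) in SH rats, Bpgm (0.11), and 1 in SD rats, Slc4a1 (0.17). The part of red cells in the values of Sod1 and Gpx1 was not tested.

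Gpx2, a glutathione peroxidase of epithelia that is known as a target of the stress regulator Nrf2, had the largest SO2 difference among the 8 members in SH rats. Its signals were 3129, 2816, 2927 and 3872.5 in SH SO2 arrays, against 2115, 2960, 2440.3 and 2455 in SH air arrays. All 4 SO2 arrays were above the air median, and 1 air array lay inside the SO2 range. The difference was 0.35 (SE 0.176; 95% interval -0.017 to 0.72), with an unadjusted p of 0.0605 and an adjusted p of 0.95 by limma. With the running number that opens each title as a covariate it was 0.043, and with single arrays left out it lay between 0.25 and 0.44. This number was 40 to 43 in SH air and 44 to 53 in SH SO2 arrays, so within SH rats it is confounded with exposure. SD rats gave 3695, 5115, 3713 and 2934 in SO2, against 3019, 2622, 4709 and 3853 in air, with strong overlap. Their difference was 0.13 (SE 0.176, adjusted p = 0.891) and -0.0037 without SD air replicate 2. Averaged over strains it was 0.24, with a 95% interval of -0.020 to 0.50 and an adjusted p of 0.606. Without SD air replicate 2 that average was 0.17 (adjusted p = 0.761 by limma). The 4 of 10 markers of ciliated airway cells on the array summed to 5249 to 6238 in SH SO2 arrays. In SH air arrays the sums were 4915 to 5608. SD arrays gave 5735 to 7656 in SO2 and 5110 to 6343.5 in air. Tubb4b, at 4701 in SH SO2 and 4185 in SH air arrays, made up most of the SH sums. Of the 4 markers, 2 were above 0 (SO2 minus air) in SH and 3 in SD rats. Foxj1 (-0.071) and Rsph1 (-0.12) were below 0 in SH rats. The part of ciliated cells in the Gpx2 values was not tested.

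Sod2, the manganese enzyme of mitochondria and a known target of inflammatory signalling, showed little difference with SO2. It measured 937.9, 1255, 1349.7 and 1348 in SH SO2 arrays, against 1352, 1512, 1054 and 1196 in SH air arrays. SD SO2 arrays gave 1535, 1260.4, 1722 and 1558, against 1587, 1393, 2019 and 1233 in SD air arrays. Of the 8 SO2 values, 7 lay inside the range of the air values of their strain. The differences were -0.066 in SH and -0.021 in SD rats (SE 0.159 each), with adjusted p = 0.976 and 0.984, and the SD value was -0.066 without SD air replicate 2. The averaged difference of -0.043 had a 95% interval of -0.28 to 0.19.

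Sod3, the secreted dismutase, had coefficients of variation (SD over mean) of 24.97% in SH SO2, 25.5% in SH air, 26.8% in SD SO2 and 14.3% in SD air arrays. Its signals were 1089, 2064, 1731 and 1604 in SH SO2 arrays, against 1755, 1347, 2345 and 1486 in SH air arrays. SD SO2 arrays gave 960, 1060.4, 1715 and 1276, against 1329.5, 1655, 1700 and 1292 in SD air arrays. Of the SD SO2 arrays, 3 were below all air arrays and 1 was above them. The differences were -0.099 in SH and -0.28 in SD rats (SE 0.203 each), with adjusted p = 0.974 and 0.74.

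Catalase measured 1987, 2337, 2498 and 1696 in SH SO2 arrays, against 2442, 2319.8, 1894 and 2093 in SH air arrays. SD rats gave 2307, 2389.7, 2633 and 2319.9 in SO2, against 2359, 2257, 2069.8 and 3000.3 in air. The 4 SD SO2 arrays were close together, with a coefficient of variation of 6.29%. The differences were -0.047 in SH and 0.0064 in SD rats (SE 0.132 each). Without SD air replicate 2 the SD value had the other sign, -0.023. The averaged difference of -0.021 had a 95% interval of -0.22 to 0.18. That interval corresponds to 0.861 to 1.13 times the level in air.

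Gpx3, the secreted peroxidase found in plasma, gave 9955, 14294, 12409 and 11415 in SH SO2 arrays, against 10236, 10994, 13166 and 8794 in SH air arrays. SD SO2 arrays measured 8095, 7551.5, 9693 and 9977, against 9295, 10877, 9304 and 9246 in SD air arrays. The group mean in SO2 was above that in air in SH rats and below it in SD rats, with overlap in both. The differences were 0.16 (SE 0.13, adjusted p = 0.95) and -0.14 (SE 0.13, adjusted p = 0.809), and the difference between them was 0.30 (95% interval -0.088 to 0.68, adjusted p = 0.984). In SD rats the value was -0.082, and the difference between strains 0.24, once SD air replicate 2 was left out.

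Prdx6, a peroxiredoxin with a phospholipase activity that takes part in surfactant turnover, gave 6695, 8112, 9336 and 6491 in SH SO2 arrays, against 7165, 5691, 7614 and 7799 in SH air arrays. SD SO2 arrays gave 7609.9, 5791, 6453 and 8798, against 7578, 6747, 6626 and 8418.5 in SD air arrays. Both SO2 groups spread wider than their air groups, and the SD SO2 range enclosed the SD air range. The differences were 0.11 in SH and -0.047 in SD rats (SE 0.143 each), with adjusted p = 0.967 and 0.953, and the SD value was -0.085 without SD air replicate 2. The averaged difference of 0.032 had a 95% interval of -0.18 to 0.24.

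The probe set assigned to both Prdx1 and Prdx1l1 measured 4600.1, 5841, 5923 and 5572 in SH SO2 arrays, against 5953, 6153, 6007 and 6857 in SH air arrays. These groups did not overlap, with SO2 lower, as was so in either direction for 4.15% of all probe sets. The difference of -0.19 (SE 0.185) had an adjusted p of 0.96 by limma. In SD rats the signals were 5907, 3855, 5245 and 4023 in SO2, against 5213, 4584, 2634 and 5729.8 in air, and overlapped (0.10, adjusted p = 0.922).

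**Figure D2:**
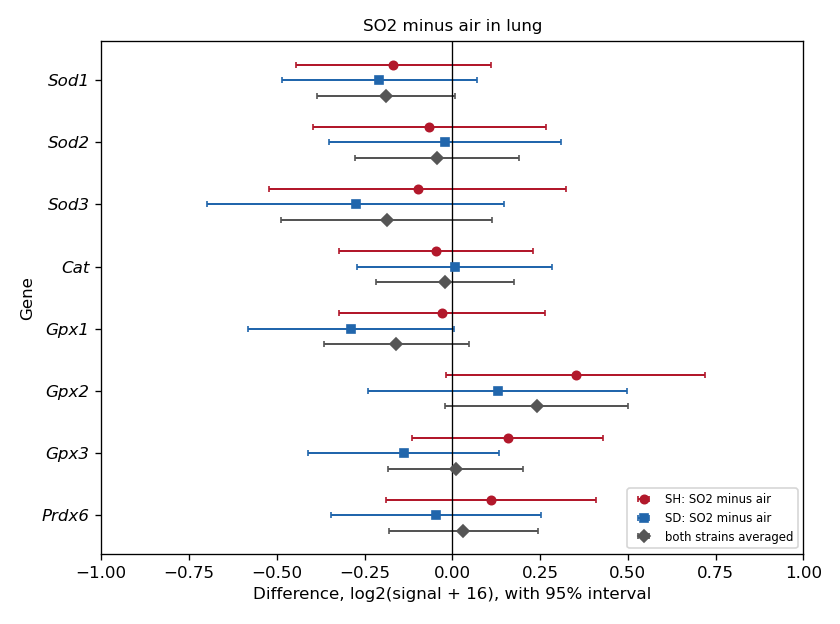
Difference between SO2 and air arrays on the log2(signal + 16) scale for 8 genes in SH rats (circles), SD rats (squares) and averaged over strains (diamonds); bars are 95% intervals from limma. Each interval includes 0, and the averaged intervals lie between -0.49 (Sod3) and 0.50 (Gpx2).

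The SO2 effects of the strains were compared directly through the interaction, which called 0 of 8 members by limma (0 at an unadjusted p under 0.05). Over all probe sets 0% were called, and 4.65% had an unadjusted p under 0.05. Differences of the effect (SH minus SD) ran from -0.054 for Cat to 0.30 for Gpx3, and 6 of 8 were above 0, as were 50.1% of all probe sets. For Gpx2 the value was 0.22 (95% interval -0.30 to 0.74), and 0.35 without SD air replicate 2. The averaged SO2 effect also called 0 of 8 members, with 0 at an unadjusted p under 0.05; over all probe sets these shares were 0% and 8.45%. Averaged SO2 differences were above 0 in 3 of 8 members and 54.3% of all probe sets.

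Genes that serve the same chemistry passed no test for SO2 either. Of 28 listed genes for other peroxidases and thiol recycling, which regenerate glutathione and thioredoxin, 24 were tested, and 0 rose and 0 fell in either strain. Gpx4, which reduces lipid peroxides in membranes, had the smallest p of this list in SD rats, averaging 2832 in SO2 and 3695 in air, a difference of -0.34 (SE 0.145) with an adjusted p of 0.562. In SH rats the smallest p of this list was that of Msrb2, a mitochondrial methionine sulfoxide reductase, averaging 261.6 in SO2 and 335.9 in air, a difference of -0.35 (SE 0.175) with an adjusted p of 0.95. The list's median difference was 0.0060 in SH and -0.042 in SD rats.

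Genes that supply copper, zinc or selenium to these enzymes numbered 13 tested of 16 listed, with 0 called in either strain. Mt2A, a metallothionein that binds zinc and copper, had the smallest p in SH rats, averaging 1162 in SO2 and 754.7 in air, a difference of 0.63 (SE 0.191) with an adjusted p of 0.828. In SD rats Mt2A averaged 891.6 in SO2 and 856.4 in air. Secisbp2, which lets ribosomes insert selenocysteine into glutathione peroxidases, was at 0.32 in SH rats (SE 0.125, adjusted p = 0.95) and 0.17 in SD rats (adjusted p = 0.729). The list's medians were -0.033 in SH and -0.063 in SD rats.

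Producers of superoxide and peroxide, such as NADPH oxidase subunits and flavin or molybdenum oxidases, numbered 12 tested of 25 listed, and 0 passed in either strain. Xdh, the xanthine oxidoreductase, had mean signals of 2581 in SH SO2 and 2075 in SH air arrays (0.31, SE 0.13, adjusted p = 0.95). In SD rats the averages of Xdh were 2623 in SO2 and 2139 in air, 0.28 apart (SE 0.13), with an adjusted p of 0.588. Averaged over strains it was at 0.30 (SE 0.0918, unadjusted p = 0.00438, adjusted p = 0.389). The medians of the list were -0.076 in SH and 0.25 in SD rats.

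Of 17 listed peroxisome assembly genes, 10 were tested, and 0 were called for SO2 in either strain. Abcd3, a transporter of the peroxisome membrane, averaged 1111 in SD SO2 and 798.2 in SD air arrays (0.49, SE 0.162, adjusted p = 0.471). The medians were -0.039 in SH and 0.059 in SD rats. Among peroxidases of granulocytes and secretions, 1 of 4 listed genes was tested, Pxdn, at 0.020 in SH and -0.15 in SD rats (adjusted p = 0.989 and 0.776).

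No member passed between strains either. By limma, 0 of 8 members were called in air, where 0% of all probe sets were called, and 0 of 8 in SO2, where 0.819% were. Averaged over exposures, 0 of 8 were called, against 1.55% of all probe sets. At an unadjusted p under 0.05 the counts were 1 in air, 1 in SO2 and 3 in the average, and the shares of all probe sets were 6.42%, 10.2% and 11.7%. No member separated the SH from the SD arrays within an exposure, where 4.03% of all probe sets did so in air and 5.58% in SO2. Values above 0 (higher in SH) were seen in 5 of 8 members in SO2, 3 of 8 in air and 5 of 8 averaged, beside 50%, 50.2% and 50.3% of all probe sets. The median size of the strain difference in air was 0.15 for the members and 0.13 for all probe sets. In SO2 these sizes were 0.23 and 0.14, and averaged over exposures they were 0.23 and 0.10.

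Gpx3 was the member with the smallest p. In SO2 it averaged 12018 ± 1821 in SH and 8829 ± 1188 in SD rats (SD, n = 4 each), with 3 of 4 SH arrays above all SD arrays. The difference was 0.44 (SE 0.13; 95% interval 0.17 to 0.71), or 1.36-fold, with an unadjusted p of 0.00294 and an adjusted p of 0.143. In air it averaged 10798 ± 1823 in SH and 9680.3 ± 798 in SD rats (0.15, adjusted p = 0.913). Averaged over exposures the difference was 0.29 (95% interval 0.10 to 0.49, adjusted p = 0.138), and with SD air replicate 2 left out it was 0.32 (adjusted p = 0.0923).

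Summed markers of fat and heart muscle were also higher in SH than in SD rats in SO2, with overlap. Summed over the 7 of 10 adipocyte markers on the array, signals were 3344 to 4515 in SH SO2 and 2895 to 3417 in SD SO2 arrays. The 9 of 10 cardiac muscle markers summed to 2829 to 4523 in SH SO2 and 1486 to 2919.5 in SD SO2 arrays. Lpl, at 2669 in SH SO2 and 2250 in SD SO2 arrays, made up most of the adipocyte sums. Of the markers tested, 3 of 5 for fat and 7 of 7 for heart muscle were above 0. Fabp4 was at -0.096 (adjusted p = 0.957 by limma), and Cfd averaged 221.7 in SH SO2 and 229.8 in SD SO2 arrays. In each list 1 marker passed in that comparison, in which 0.819% of all probe sets were called. Car3, a carbonic anhydrase abundant in fat, averaged 587.3 in SH SO2 and 277.9 in SD SO2 arrays (1.02, SE 0.149, adjusted p = 0.000933 by limma), and 336.1 in SH air and 349.1 in SD air arrays. Tcap, a protein of the muscle sarcomere, averaged 548.1 in SH SO2 and 252.6 in SD SO2 arrays (1.08, SE 0.245, adjusted p = 0.0402). The part of these tissues in the Gpx3 difference was not tested.

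Gpx2 and Sod2 had lower values in SH than in SD rats. Gpx2 averaged 2493 ± 349 in SH and 3551 ± 927 in SD rats in air, and 3 of 4 SH arrays were below all SD arrays. The difference was -0.48 (SE 0.176; 95% interval -0.85 to -0.11, adjusted p = 0.568), and with SD air replicate 2 left out it was -0.61 (adjusted p = 0.16). In SO2 it averaged 3186 ± 476 in SH and 3864 ± 909 in SD rats (-0.26, adjusted p = 0.664). Over both exposures the difference was -0.37 (95% interval -0.63 to -0.11, adjusted p = 0.184), or -0.44 without that array (adjusted p = 0.0666). Cyp2f4, a cytochrome P450 of club cells, was also lower in SH rats, at 651.4 in SH SO2 and 1573 in SD SO2 arrays (-1.26, SE 0.165, adjusted p = 0.000287). Of 3 club cell markers tested in that comparison, 1 was above 0, Aldh1a1 (0.24, adjusted p = 0.600 by limma). Scgb1a1 was at -0.097 (adjusted p = 0.831). It averaged 25812 in SH SO2 and 27975 in SD SO2 arrays, most of the summed club cell signal. The 4 of 8 club cell markers on the array summed to 30504 to 33751 in SH SO2 and 30582 to 44154.5 in SD SO2 arrays. The part of airway cells in the Gpx2 difference was not tested.

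Sod2 averaged 1223 ± 195 in SH and 1519 ± 191 in SD rats in SO2 (-0.32, SE 0.159, adjusted p = 0.518). In air it averaged 1278.5 ± 197 in SH and 1558 ± 340 in SD rats (-0.27, SE 0.159, adjusted p = 0.831). The 2 differences were of like size, and averaged over exposures the value was -0.29 (95% interval -0.53 to -0.059, adjusted p = 0.26). Neutrophils can express Sod2 strongly. The 7 of 11 neutrophil markers on the array summed to 5011 to 8163 in SH SO2 and 3973 to 9712 in SD SO2 arrays, which overlapped. Lcn2, at 4021 in SH SO2 and 6158 in SD SO2 arrays, on average made up most of these sums (-0.62). S100a8 (1.06) and S100a9 (0.89) were higher in SH rats in SO2, with adjusted p = 0.287 and 0.313 by limma. Of 5 markers tested, 3 were above 0 in SO2 and 4 in air. In air the sums were 7765 to 13713 in SH and 4511.5 to 9373 in SD arrays. The part of neutrophils in the Sod2 difference was not tested.

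The other members had intervals that included 0 in both exposures. Averaged over exposures, SH minus SD was 0.18 for Sod1 (95% interval -0.021 to 0.37) and 0.28 for Sod3 (-0.021 to 0.58). It was -0.17 for Cat (-0.36 to 0.030), 0.076 for Gpx1 (-0.13 to 0.28) and 0.020 for Prdx6 (-0.19 to 0.23), which was 0.00076 without SD air replicate 2. For Prdx6 this interval corresponds to 0.876 to 1.17 times the SD level. The smallest adjusted p among these 5 was 0.47, that of Sod3.

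**Figure D3:**
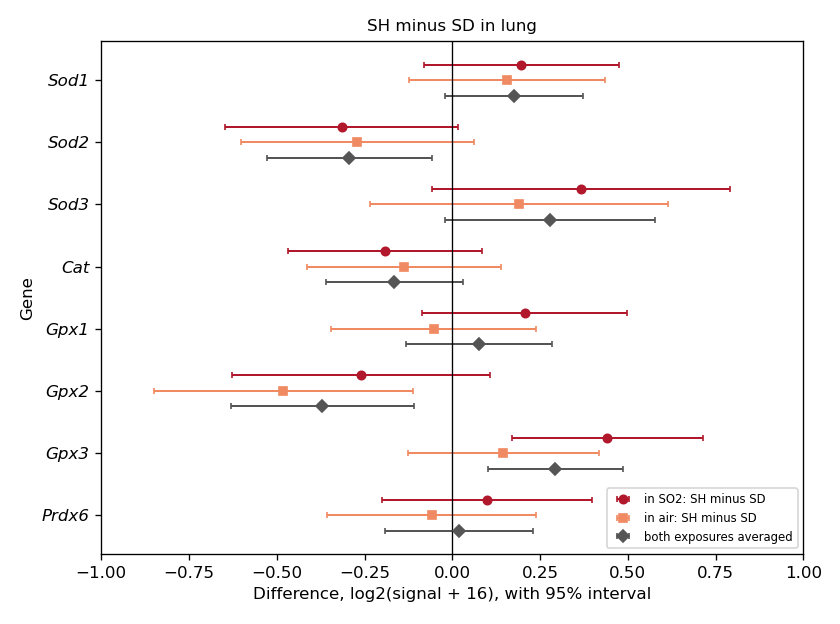
Difference between SH and SD arrays on the log2(signal + 16) scale for 8 genes in SO2 (circles), in air (squares) and averaged over exposures (diamonds); bars are 95% intervals from limma. The averaged intervals of Gpx3 (0.10 to 0.49), Gpx2 (-0.63 to -0.11) and Sod2 (-0.53 to -0.059) leave out 0, and none passes after adjustment over all probe sets.

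One gene that serves the peroxiredoxins did pass between strains. Srxn1 encodes sulfiredoxin, which restores peroxiredoxins such as Prdx1 after their cysteine has been overoxidised. It measured 358.7, 211.3, 273.8 and 270.3 in SH SO2 arrays, against 43.9, 164.1, 75.1 and 140.8 in SD SO2 arrays. In air it gave 257.5, 272.1, 238.9 and 246.7 in SH arrays, against 53.4, 160.4, 14.6 and 90.1 in SD arrays. All 8 SH arrays were above all 8 SD arrays, a separation that 0.27% of all probe sets showed in either direction. Averaged over exposures Srxn1 was 1.57 higher in SH rats on the log2 scale (SE 0.289; 95% interval 0.97 to 2.18), or 2.97-fold, with an adjusted p of 0.00563 by limma.

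Within single exposures, Srxn1 differed between the strains by 1.38 in SO2 (adjusted p = 0.146) and 1.76 in air (adjusted p = 0.169). With SD air replicate 2 left out the air value was 2.15 (adjusted p = 0.0105), and without SD air replicate 3 the adjusted p in SO2 was 0.0477. The signal of 14.6 on SD air replicate 3 was below the 10th percentile of that array, 20.7, so the size of the fold is uncertain. The averaged call was lost when the running number that opens each title entered as a covariate (1.37, adjusted p = 0.075 by limma). That number is partly tied to group, with 40 to 43 in SH air and 47 to 50 in SD SO2 arrays. SO2 against air gave 0.11 in SH and 0.49 in SD rats for Srxn1 (adjusted p = 0.983 and 0.776). Without SD air replicate 2 the SD value was 0.87 (unadjusted p = 0.0367, adjusted p = 0.577 by limma).

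Srxn1 was the 1 gene of 24 tested in its list that passed the averaged strain comparison, and 0 fell, where 1.55% of all probe sets were called. Prdx5, a peroxiredoxin of mitochondria and peroxisomes, followed it, with mean signals of 2509 in SH SO2, 2175 in SD SO2, 2654 in SH air and 2215 in SD air arrays (0.23, SE 0.0752, adjusted p = 0.179). The shared probe set of Prdx1 and Prdx1l1 was at 0.37 (95% interval 0.094 to 0.64, adjusted p = 0.22). In air its 4 SH arrays were above its 4 SD arrays (0.51, SE 0.185, adjusted p = 0.548 by limma), and in SO2 the groups overlapped. Of all probe sets, 4.03% separated the strains in air in either direction. The list's median was 0.010, and that of all probe sets 0.0013.

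**Figure D4:**
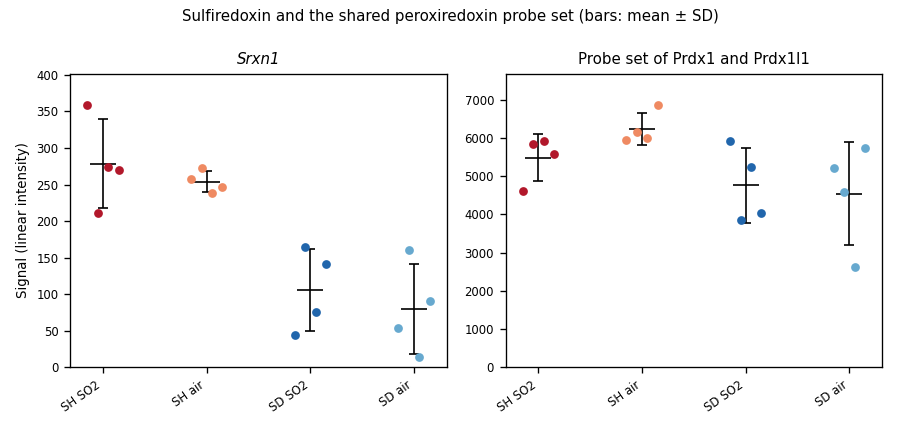
Signal (linear intensity, axis from 0) of Srxn1 and of the probe set assigned to both Prdx1 and Prdx1l1, by group; points are arrays and bars the mean ± SD of 4 arrays. Srxn1 signals of SH arrays (211.3 to 358.7) are all above those of SD arrays (14.6 to 164.1).

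In the other 4 pathway lists, 0 genes were called between strains. Over all probe sets, the called share was 0% in air, 0.819% in SO2 and 1.55% averaged over exposures. Pex3, which starts the assembly of peroxisomes, the compartment of catalase, had mean signals of 183.2 in SH SO2 and 310.1 in SD SO2 arrays. In air it averaged 189.1 in SH and 269.4 in SD arrays. Its averaged difference of -0.59 (SE 0.153) had an adjusted p of 0.0591. Aox1, an aldehyde oxidase that releases superoxide and peroxide, was at 0.47 (SE 0.173, adjusted p = 0.235). Median averaged differences were 0.064 for metal and selenium supply, 0.0064 for producers of superoxide and peroxide and -0.040 for peroxisome assembly.

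Several of these genes, Gpx2, Prdx1 and Srxn1 among them, are known targets of Nrf2, which binds the antioxidant response element. Upstream sequences from RefSeq (rat assembly GRCr8) were therefore searched over the 250 bases before the gene start for the element's core TGACNNNGC, the AP-1 site TGANTCA and the NF-kB site (GGGA, any base, then TTTCC), on both strands. The core was held by 10.1% of 33469 such windows of all genes, the AP-1 site by 6.34% and the NF-kB site by 0.314%. Windows were matched for 7 of the 9 listed genes, all but Sod3 and Prdx6. Of these 7, Sod2, Gpx2 and Prdx1 held the core, Prdx1 also held the AP-1 site, and the NF-kB letters were in none. Srxn1 held an AP-1 site but not the core within this window. Shown are the last 150 bases before the start of Srxn1, of the 3 genes with the core, and of Gpx3, the member with the smallest strain p, with matches in capitals. The intervals are chr3:161064662-161064811 (plus strand) for Srxn1, chr6:101230034-101230183 (minus) for Gpx2, chr1:50050169-50050318 (minus) for Sod2, chr5:135383756-135383905 (plus) for Prdx1 and chr10:39529185-39529334 (plus) for Gpx3.
Srxn1: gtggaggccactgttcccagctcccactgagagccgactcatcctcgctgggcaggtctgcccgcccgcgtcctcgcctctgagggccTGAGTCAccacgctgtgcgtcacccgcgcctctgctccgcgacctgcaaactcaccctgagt
Gpx2: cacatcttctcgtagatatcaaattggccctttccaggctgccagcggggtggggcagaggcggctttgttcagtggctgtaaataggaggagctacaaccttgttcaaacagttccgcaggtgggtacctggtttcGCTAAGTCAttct
Sod2: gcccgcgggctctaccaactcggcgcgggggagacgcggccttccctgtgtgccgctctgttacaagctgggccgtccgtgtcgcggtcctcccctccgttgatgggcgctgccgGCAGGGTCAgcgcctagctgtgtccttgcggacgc
Prdx1: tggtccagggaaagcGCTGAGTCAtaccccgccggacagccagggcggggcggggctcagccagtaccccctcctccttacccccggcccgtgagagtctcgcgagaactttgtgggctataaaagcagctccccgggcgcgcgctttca
Gpx3: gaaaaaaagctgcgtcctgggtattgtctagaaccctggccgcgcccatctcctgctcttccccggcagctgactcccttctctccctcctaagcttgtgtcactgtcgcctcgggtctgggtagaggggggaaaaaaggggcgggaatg
Counting back from -1 just before the start, the Gpx2 match lies at -13 to -5 and that of Sod2 at -35 to -27. The core of Prdx1, at -135 to -127, overlaps an AP-1 match at -133 to -127, and a further AP-1 match at -248 to -242 lies outside the stretch shown. The AP-1 match of Srxn1 is at -62 to -56. These are matches of letters in the reference genome, not in SH or SD rats, and are given as a description.

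Within groups, the members did not move as a block. Correlations were computed over the deviations of the 16 arrays from their group means for 28 pairs of members and for each member with the 2 array measures, 44 relations in all, with p-values from 100000 permutations within groups and Benjamini-Hochberg adjustment. Sod3 and Gpx3, both secreted, had the closest relation among the pairs. For them Pearson's r was 0.79 (p = 0.00383, adjusted p = 0.0843) and Spearman's rho was 0.79 (p = 0.00308, adjusted p = 0.0678), with r = 0.74 without the 2 arrays farthest from the median of Sod3. No other pair had an adjusted p below 0.277. Gpx2 and Prdx6 gave r = -0.57 and rho = -0.49 (p = 0.0344 and 0.0682, adjusted p = 0.277 and 0.398), and r = -0.43 without the 2 arrays farthest in Gpx2. Cat and Gpx1, which both act on hydrogen peroxide, gave r = -0.54 and rho = -0.54 (p = 0.0374 and 0.039, adjusted p = 0.277 and 0.398), and r = -0.33 without the 2 arrays farthest in Cat.

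Prdx6 tracked the actin 3′ to 5′ ratio, and was the 1 member to pass in relation to an array measure. Its r was -0.82 (p = 0.00069, adjusted p = 0.0304) and its rho -0.85 (p = 0.0002, adjusted p = 0.0088), with r = -0.81 without the 2 arrays farthest in the ratio. The lowest Prdx6 signal of the SH SO2, SH air and SD SO2 groups came from arrays with ratios of 2.27, 2.36 and 2.94. The SD air array with the lowest Prdx6 signal had a ratio of 1.52. The 10th percentile of signal, a measure of background, gave r = -0.58 with Sod1 (rho = -0.62, p = 0.0172 and 0.0144, adjusted p = 0.252 and 0.211), and -0.63 without the 2 arrays farthest in it. Relations of like size were seen with Gpx1 (r = -0.54), Cat (0.58) and Prdx6 (0.57). Their permutation p-values were 0.0378, 0.0482 and 0.0533 (adjusted p = 0.277, 0.293 and 0.293). The median of this percentile was 23.25 in SH SO2, 19.8 in SH air, 21.35 in SD SO2 and 19.8 in SD air arrays.

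**Figure D5:**
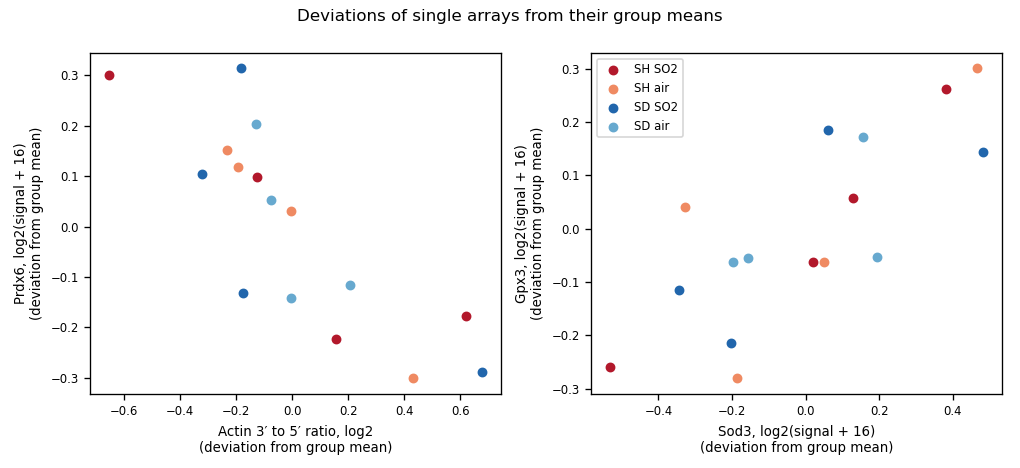
Deviation of each of 16 arrays from its group mean on log2 scales, for Prdx6 against the actin 3′ to 5′ ratio (left) and for Gpx3 against Sod3 (right), coloured by group. Prdx6 falls as the ratio rises (r = -0.82), and Gpx3 rises with Sod3 (r = 0.79).

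The genes most like each member in log2 signal over the 16 arrays were sought among 8055 others by Pearson's r, as a description. For Sod1 they were P4ha1 (r = 0.88), Smpd1 (0.86) and Hspb1 (0.85). Sod2 was followed by Car8 (r = 0.83), Lsm4 (0.80) and Tmem176b (0.80), and Sod3 by Mfge8 (0.85), Ninj1 (0.83) and Aoc3 (0.82). The nearest to Cat were Slc8b1 (r = 0.85), Nit2 (0.84) and Nacc1 (0.84). Gpx1 had Pepd (r = 0.91), Gipc2 (0.88) and Pgam1 (0.88), and Gpx2 had Tmed3 (0.87), Rab24 (0.86) and Cbfb (0.80). For Gpx3 they were Efnb1 (r = 0.85), Inmt (0.84) and Spon1 (0.82), and for Prdx6 Sncg (0.90), Eif4enif1 (0.89) and Abhd2 (0.86). None of these 24 genes is a member of the set, and the highest r of 8055 is high by selection.

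The median spread of the members within groups was close to that of all probe sets tested, without matching for signal level. The members are bright, averaging 1394 (Sod2) to 10331 (Gpx3) over the 16 arrays, where array medians were 250.2 to 281.4. The median coefficient of variation of the 8 members was 15.5% in SH SO2, 13.8% in SH air, 14.2% in SD SO2 and 19.2% in SD air arrays, against 16.5%, 12.3%, 17.2% and 17.5% for all probe sets tested in the same groups. The lowest value was 4.14% for Gpx1 in SH SO2 arrays, and the highest was 26.8% for Sod3 in SD SO2 arrays.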

How the data were processed

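Deposited values are linear intensities, 1 for each probe set on each array, which the authors made with the Affymetrix software GCOS, per the submitters' processing notes; for its version and algorithm, the sources used here give nothing. Trimmed means of the 16 arrays were 500.099 to 500.111, so the deposited scaling was kept. Of 15923 probe sets, 57 controls were left out. The platform annotation gave a single symbol to 12783 of the remaining 15866, several to 312 and none to 2771; 12754 of the single ones matched RefSeq (GRCr8) by Entrez identifier.

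Values were taken as log2(intensity + 16), an offset that understates changes of dim probe sets. After leaving out the 30% with the lowest mean, 11106 probe sets were tested with limma 3.58.1 in R 4.3.3 (a mean per group, 12 residual degrees of freedom, eBayes with a trend) and Benjamini-Hochberg adjustment over all of them. The averaged comparisons take the mean of both strains' or both exposures' differences. The test was tested on simulated data. Figures used matplotlib 3.10.9 in Python 3.11.15.

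The members and gene lists were chosen with earlier results of these data known. The rule for named genes was all members, pathway list genes called in any comparison or among the 4 of smallest p in a list, the 3 genes most like each member, and Terf2ip; the lists' other genes are given as counts. Car3, Tcap and Cyp2f4, the cell type markers called between strains, were named after their values were seen. A gene with several probe sets was represented by that with the highest mean. Alternatives were offsets of 1 and 64, quantile normalization, median centring, no filter, the lower 50% left out, averaged probe sets, the replicate number as a block, no trend, a robust prior, array weights, only the groups compared, the title number or array quality as covariates, and each array left out. Replicate numbers were given here in title order, so same-numbered arrays cannot show whether arrays were paired. Of 24 same-numbered pairs, 4 correlated above 0.1 in their deviations from group means. The number of arrays limits the precision.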

Additional observations from a re-analysis of the deposited data

Results flagged for a closer look

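Gpx3 measured 10877 on SD air replicate 2, far from the 9246 to 9304 of the other 3 SD air arrays. It was the 1 such value among 36 sets of 4 arrays examined, where chance marks about 1 in 20 sets.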

How the results depend on the processing

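No member passed in any of the 7 comparisons under the 14 other settings or with any of the 16 arrays left out. Of 2063 values of single genes under alternatives, 1969 kept direction and side of the threshold, 3 passed where the main value did not, 1 was lost (both kinds of change concern Srxn1) and 90 had the other sign, all of main values of at most 0.383 in size; the cause was not tested. The averaged strain difference of Srxn1 had adjusted p-values between 0.000545 and 0.075, and with arrays left out its value ran from 1.34 to 1.76. For Srxn1 in air, array weights gave 1.72 (adjusted p = 0.0386). Over all probe sets, the averaged strain comparison called 172, against 56 with the title number as a covariate and 282 with SD air replicate 2 left out; the strain comparison in SO2 called 91, against 138 with the array quality covariates. Without SD air replicate 2 the strain comparison in air called 90, against 0 with it. Leaving out SH SO2 replicate 2 or 3 left 55 and 51 calls in SO2. Deviations of same-numbered replicates, numbered here in title order, correlated at r from -0.43 to 0.15 (median -0.0059, over 24 pairs). Whether arrays were paired by design cannot be seen from such numbers. With the replicate number as a block 0 members were called in each comparison, and 88 and 161 probe sets in the strain comparisons in SO2 and averaged. Srxn1 has no value with the lower 50% left out, and comparisons that use all groups have none with only the groups compared. In the values below, SO2 stands for SO2 minus air and strain for SH minus SD, on the log2 scale. With the array quality covariates the reversed values were Cat SO2 in SD -0.014, Gpx1 SO2 in SH 0.096, the Prdx1 and Prdx1l1 probe set averaged SO2 0.056, Prdx6 strain in air 0.041, Prdx6 SO2 in SD 0.034, Sod2 averaged SO2 0.023, Sod2 SO2 in SD 0.045, Sod2 SO2 in SH 0.0021, Sod3 SO2 in SH 0.11, Srxn1 SO2 in SH -0.035. Under array weights they were Cat averaged SO2 0.0018, Sod2 SO2 in SD 0.0054. Centring on medians gave Cat SO2 in SD -0.031, Gpx3 averaged SO2 -0.037, Prdx6 averaged SO2 -0.015. Quantile normalization gave Cat averaged SO2 0.0018, Sod2 SO2 in SD 0.0021. The title number as a covariate gave Gpx1 SO2 in SH 0.022, Gpx2 SO2 effect difference -0.14, Gpx3 averaged SO2 -0.022, Prdx6 strain in air 0.093, Prdx6 averaged SO2 -0.031, Prdx6 SO2 in SH -0.041, Prdx6 SO2 effect difference -0.021, Sod1 strain in air -0.040, Sod1 SO2 in SH 0.028, Sod2 SO2 in SD 0.011, Sod3 SO2 effect difference -0.16, Srxn1 SO2 effect difference 0.20. Leaving out 1 array in turn, the following ranges crossed 0: Sod2 SO2 in SH -0.15 to 0.055, Sod3 SO2 in SH -0.23 to 0.078, Cat SO2 in SH -0.13 to 0.056, Gpx1 SO2 in SH -0.094 to 0.0067, Srxn1 SO2 in SH -0.018 to 0.22, Sod2 SO2 in SD -0.12 to 0.11, Cat SO2 in SD -0.064 to 0.11, Gpx2 SO2 in SD -0.015 to 0.28, the Prdx1 and Prdx1l1 probe set SO2 in SD -0.14 to 0.23, Prdx6 SO2 in SD -0.15 to 0.049, Sod1 SO2 effect difference -0.088 to 0.16, Sod2 SO2 effect difference -0.18 to 0.075, Cat SO2 effect difference -0.16 to 0.050, Srxn1 SO2 effect difference -0.77 to 0.075, Gpx1 strain in air -0.20 to 0.062, Prdx6 strain in air -0.11 to 0.041, Prdx6 strain in SO2 -0.0017 to 0.20, Sod2 averaged SO2 -0.095 to 0.022, Cat averaged SO2 -0.061 to 0.033, Gpx3 averaged SO2 -0.038 to 0.059, the Prdx1 and Prdx1l1 probe set averaged SO2 -0.16 to 0.021, Prdx6 averaged SO2 -0.021 to 0.080, Prdx6 averaged strain -0.030 to 0.072. Probe sets near an array's 10th percentile, as Srxn1 in some SD arrays, have uncertain folds.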
